A study of Mus musculus with 22 samples.

Results

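The transcripts described here encode the proteins that bring long-chain fatty acids into heart muscle and oxidise them. They were a list of 33 genes, taken by name, and all 33 were among the 15503 genes tested on Agilent 2-colour arrays of mouse heart. The list held 2 regulators (Ppara, Ppargc1a), 3 PPAR-responsive genes of the fuel switch (Pdk4, Ucp3, Angptl4), 4 genes of uptake and binding (Cd36, Fabp3, Lpl, Slc27a1) and 6 of activation and the carnitine shuttle (Acsl1, Cpt1a, Cpt1b, Cpt2, Slc25a20, Crat). It also held 9 enzymes of the beta-oxidation spiral (Acadvl, Acadl, Acadm, Acads, Echs1, Hadha, Hadhb, Hadh, Acaa2), 3 auxiliary enzymes for unsaturated chains (Eci1, Eci2, Decr1), 2 thioesterases with malonyl-CoA decarboxylase (Acot1, Acot2, Mlycd) and 3 genes of electron transfer (Etfa, Etfb, Etfdh). Together they were read by 40 probes.

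The hearts came from 22 female C57BL/6 mice, bought at 5 to 7 weeks of age and kept for 1 to 3 weeks before the experiment. Under Hypnorm and Dormicum anaesthesia each mouse received a single instillation into the trachea. Treated mice received 162 µg of nano-TiO2, particles of titanium dioxide, in saline that also held cell-free lavage fluid from the lungs of untreated mice. Controls received that liquid without particles. Hearts were taken after 1 day (5 control and 5 nano-TiO2 mice) or 28 days (6 and 6), cut into small pieces and frozen, so each array shows whichever pieces of muscle, atrium, vessel and attached fat were extracted. In such bulk RNA, fewer cells of a type and less RNA per cell cannot be told apart.

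In the adult heart most ATP comes from oxidising fatty acids. Lipoprotein lipase frees them from circulating triglyceride, CD36 and the fatty acid transport proteins pass them through the membrane, and FABP3 carries them in the cytosol. Acyl-CoA synthetase traps them, carnitine palmitoyltransferases move them into mitochondria, and the spiral shortens them, handing electrons to the respiratory chain through ETF. PPARα with its coactivator PGC-1α drives much of this programme, and PDK4, by shutting pyruvate dehydrogenase, turns the heart from glucose to fat.

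RNA from each heart was labelled with Cy5 and compared with a reference RNA pooled from mouse cell lines in Cy3, so levels below are log2 of heart over reference. To check the tissue label, 9 of 9 cardiomyocyte markers were measured, and Tnni3 (troponin I) averaged 7.85 and Myl2 (a ventricular myosin light chain) 6.03 on this scale. The labels' RNA protocol names lung instead, but of 9 lung epithelium markers Sftpc, Sftpb and Ager were detected over background on 0 of 22 arrays. The other 6 were detected on 1 to 10 arrays, with Lamp3 and Napsa on 10 and Scgb1a1 on 6. The share of probes clearly over background ran from 32.7% to 52.8% by array, and the number of arrays limits the precision. Some arrays stood apart. Atrial transcripts were nearly missing from control day 1 replicate 2, nano-TiO2 day 1 replicate 1 and nano-TiO2 day 28 replicate 1. On the liver score (mean of centred markers), control day 28 replicates 1, 3 and 4 and nano-TiO2 day 1 replicate 2 stood at 0.99 or more. The lung epithelium score rests on only 3 of the 9 markers, Scgb1a1, Lamp3 and Napsa, with SDs over the arrays of 1.10, 0.31 and 0.41. The other listed markers were detected on too few arrays to enter it. On this score control day 28 replicates 1 and 5 stood at 1.29 or more. All other values of either score were 0.17 or less. These 5 are called below the arrays with liver or lung epithelium transcripts, but the others were not free of them. Ahsg, a liver marker, was detected on 22 arrays and Alb on 15. Fat cell transcripts also differed between groups, as their mean marker score (7 of 9 listed markers measured, each centred over the arrays) ran from -2.33 to -0.95 in control day 1, from -2.19 to 2.23 in nano-TiO2 day 1, from -0.19 to 2.72 in control day 28 and from -2.17 to 2.31 in nano-TiO2 day 28. Of these 7 markers Thrsp was detected on 22 arrays, Cfd on 21, Adipoq, Plin1 and Cidec on 16, Retn on 15 and Acvr1c on 8. Low values of the fat cell score thus rest partly on signal near the floor. For both nano-TiO2 comparisons, their difference and the control comparison, counts and medians of the members are given with and without the arrays named above.

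To show what lies upstream of PPAR-responsive genes of the fuel switch (Pdk4, Ucp3) and of enzymes of the spiral that the control comparison turns on (Acadm, Hadha), 4 stretches of 250 bases before the transcription start follow (RefSeq, GRCm38.p6, 5′ to 3′ along the gene). Capitals mark the nuclear receptor motif AGGTCA, to which PPAR and ERR receptors are known to bind, or the GC box GGGCGG, a motif of Sp1-type factors, on either strand. Acadm is the medium-chain dehydrogenase, and Hadha, a subunit of the trifunctional protein, shares its upstream stretch with a gene on the other strand.
Pdk4, chr6:5496279-5496528, minus strand: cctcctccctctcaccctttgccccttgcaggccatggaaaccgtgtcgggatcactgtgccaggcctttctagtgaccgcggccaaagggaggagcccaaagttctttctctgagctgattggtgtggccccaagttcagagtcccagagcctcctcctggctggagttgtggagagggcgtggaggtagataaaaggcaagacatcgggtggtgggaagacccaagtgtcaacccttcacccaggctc
Ucp3, chr7:100472741-100472990, plus strand: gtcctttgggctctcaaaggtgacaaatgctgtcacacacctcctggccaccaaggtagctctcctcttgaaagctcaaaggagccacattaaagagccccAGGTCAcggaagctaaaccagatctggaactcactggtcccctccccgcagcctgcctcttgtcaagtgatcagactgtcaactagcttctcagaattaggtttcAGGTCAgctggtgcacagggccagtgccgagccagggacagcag
Acadm, chr3:153944644-153944893, minus strand: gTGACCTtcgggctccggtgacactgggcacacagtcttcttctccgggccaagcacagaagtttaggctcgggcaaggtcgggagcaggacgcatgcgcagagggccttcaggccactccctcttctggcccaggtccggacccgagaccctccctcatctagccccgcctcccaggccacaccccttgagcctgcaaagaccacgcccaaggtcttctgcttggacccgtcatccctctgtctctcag
Hadha, chr5:30154981-30155230, minus strand: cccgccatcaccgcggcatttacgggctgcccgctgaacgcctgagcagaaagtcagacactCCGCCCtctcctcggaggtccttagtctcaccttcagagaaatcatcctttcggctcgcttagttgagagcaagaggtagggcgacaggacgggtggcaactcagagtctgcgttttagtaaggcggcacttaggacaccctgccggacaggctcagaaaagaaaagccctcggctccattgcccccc
AGGTCA was found in the 250-base windows of 6 of the 27 members that the promoter table holds (Acadm, Acadvl, Cd36, Cpt1a, Echs1, Ucp3), or 20.0% of their 30 windows, against 14.0% of all 32851 windows in the table. A direct repeat, AGGTCA followed by AGGTCA with 1 base of any kind between, was in 0 of these 30 windows and in 0.0335% of all, and TCAAGGTCA, which contains AGGTCA, was in 0 and in 0.387%. GGGCGG was in 56.7% of the members' windows and 32.7% of all, and CCAAT in 46.7% and 33.8%. Hadha and Hadhb, the α and β subunits of the mitochondrial trifunctional protein, start 272 bases apart on opposite strands, and their windows share 228 bases. A letter match is a description of the sequence and shows neither binding nor its absence.

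The members stood well above the reference RNA in heart. Of 33 genes, 30 had a log2 ratio above 0 on every array with a value, against 30.6% of all genes tested, and the exceptions were Angptl4, Cpt1a and Acads. The 30 include Ucp3 and Decr1, whose reference signal was well above background on 0 and 4 of 22 arrays. Ratios of these genes rest on a reference near the floor. Fabp3, the cytosolic fatty acid carrier of heart, averaged 7.10 ± 0.29 (SD, n = 22), or 137-fold over the reference, and Lpl, the lipase at the vessel wall, averaged 6.36 ± 0.30. Cpt1b, the muscle form of the outer-membrane carnitine palmitoyltransferase, averaged 4.65 ± 0.27, while Cpt1a, the liver form, lay at 0.06 ± 0.25, between -0.41 and 0.45. All arrays used the same dye orientation, so these ratios include any dye effect, and as ratios of different probes they do not order the genes by abundance. With median centring in place of loess 26 of the 33 were above the reference on every array.

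**Figure D1:**
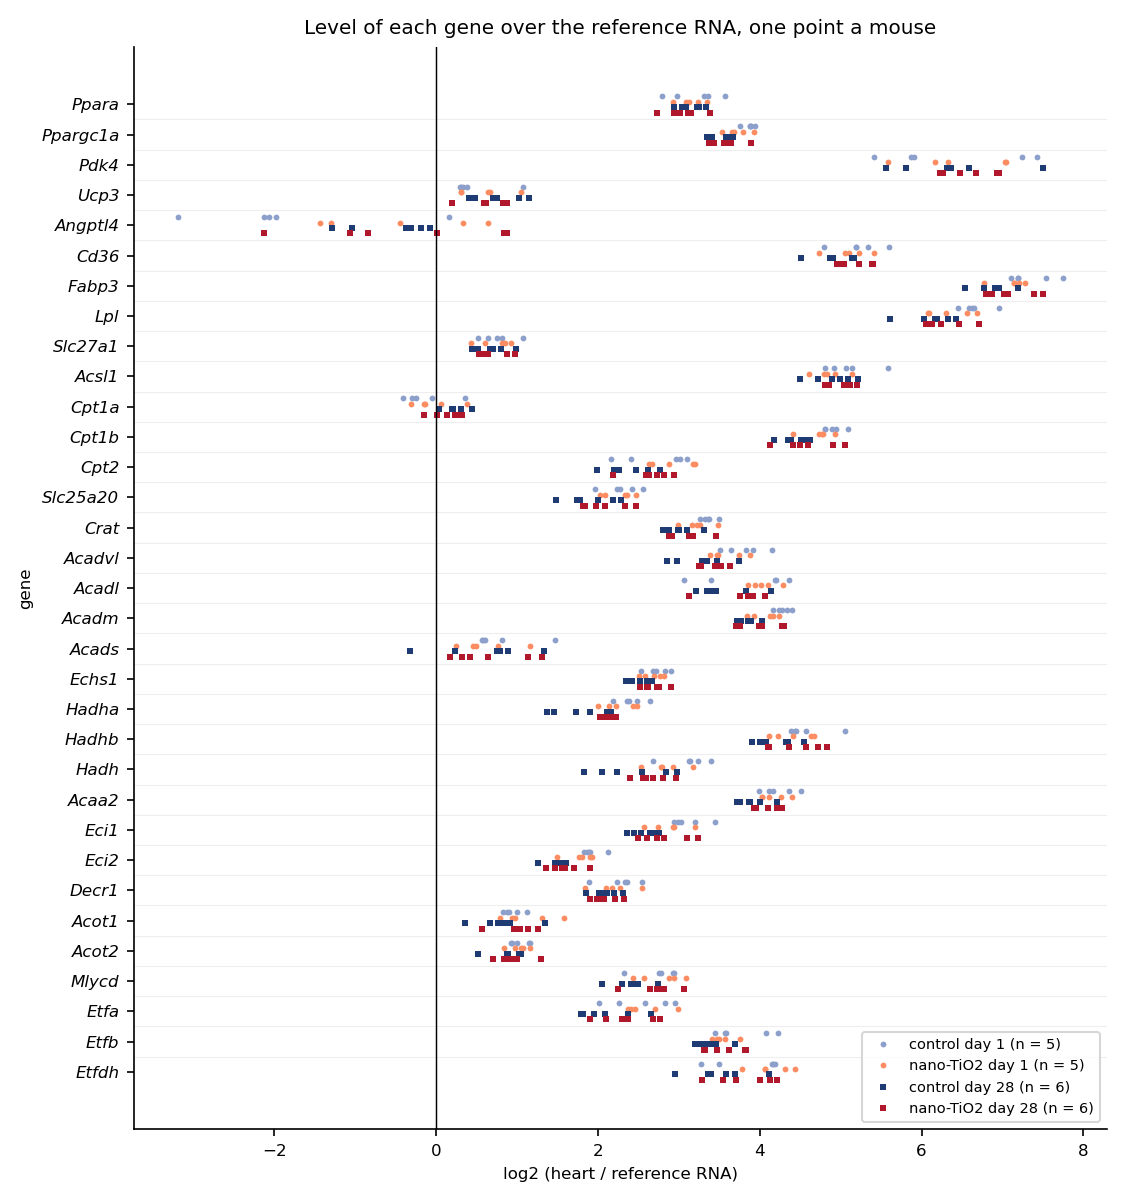
Log2 ratio of heart over reference RNA (horizontal axis) for each of the 33 genes (vertical axis), with a point for each of the 22 mice, coloured by group. Fabp3 averaged 7.10 and Lpl 6.36, while Angptl4 spread from -3.19 to 0.88, the widest spread on the plot.

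Variation between mice of the same group was uneven across the list. Angptl4, a secreted inhibitor of lipoprotein lipase, had a residual SD of 0.99 log2, above 99.6% of all genes tested, and ranged 16.7-fold over the 22 mice. Pdk4 followed with 0.65 and a 4.25-fold range, then Acads (short-chain acyl-CoA dehydrogenase, 0.46), Acadl (the long-chain enzyme, 0.38) and Etfdh (0.37), which passes electrons from ETF to ubiquinone. At the other end stood Echs1, the enoyl-CoA hydratase, with 0.13, and Ppargc1a with 0.14.

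Pdk4 itself did not separate the groups. In control day 1 it was 5.42, 5.90, 5.87, 7.43 and 7.24, and in nano-TiO2 day 1 it was 6.33, 7.04, 5.59, 6.17 and 7.05. The day 28 controls ran from 5.56 through a median of 6.34 to 7.5, and the day 28 nano-TiO2 mice from 6.23 through 6.57 to 6.96. All 4 ranges overlapped, and the nano-TiO2 differences were 0.06 ± 0.37 (SE) at day 1 and 0.23 ± 0.34 at day 28 (limma, adjusted p = 0.969 and 0.898). Acadl in control day 1 was 4.19, 4.37, 4.21, 3.40 and 3.07, and Etfdh was 4.16, 4.16, 4.18, 3.50 and 3.28 in the same mice. In both genes the last pair of mice lay well below the other 3, and in Pdk4 the same pair lay well above them. Their arrays were those with the fewest probes well above background in the series (32.7% and 33.3%). Both were read on the same scan day, and the part of scan day in these values was not tested. Acads in control day 1 was 0.81, 0.60, 1.48, 0.57 and 0.58, with 1 mouse far above the rest. Its day 28 controls ran from -0.33 through a median of 0.77 to 1.33.

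The first question of the study was what the hearts show 1 day after the particles. At that time 0 of 33 members differed between nano-TiO2 and control mice, as did 0% of all genes tested (limma, adjusted p under 0.05). At an unadjusted p under 0.05, 1 member was higher and 1 lower, against 6% and 2.64% of all genes. The members' median difference was -0.09 log2 against 0.01 for all genes, with 23 below 0 and 10 above, where 45.8% of all genes lay below 0. With median centring in place of loess the medians were 0.17 for the members and 0.17 for all genes. Without the 3 arrays nearly lacking atrial transcripts 0 members and 40 genes passed (limma; 5 members at an unadjusted p under 0.05, median -0.12). Without the 5 arrays with liver or lung epithelium transcripts 0 members passed (0 at an unadjusted p under 0.05, median -0.09).

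Angptl4 had the smallest p of the list at day 1. Its control values were -1.98, -3.19, -2.07, 0.16 and -2.13, and the treated values were 0.33, 0.64, -1.44, -0.44 and -1.30. Treated mice lay above 4 of the 5 controls, and the remaining control overlapped them. The difference was 1.40 ± 0.56 (SE), or 2.63-fold (95% interval of log2 0.23 to 2.56, adjusted p = 0.50), and it was 0.63, 3.07 and 0.11 within the 3 scan days. Of 8 measured glucocorticoid-responsive genes 8 were above 0 in the same comparison and 0 passed, their score running from -0.65 to -0.26 in controls and from -0.32 to 0.59 in treated mice, and the adipocyte score given above moved the same way. The part of either in the Angptl4 difference was not tested. Among the other members above 0, those with the smallest p were Etfdh (0.28 ± 0.21) and Acot1, a cytosolic acyl-CoA thioesterase (0.18 ± 0.16). Several members below 0 had a smaller p than these.

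Below 0 at day 1, Acadm differed by -0.23 ± 0.11 (adjusted p = 0.564). Control values were 4.24, 4.40, 4.17, 4.28 and 4.34, and treated values 4.16, 3.84, 4.12, 3.93 and 4.24. Of the 5 treated mice 4 lay below every control. Lpl differed by -0.31 ± 0.15 and Eci1, which shifts double bonds so that unsaturated chains can enter the spiral, by -0.25 ± 0.14. Under median centring these 3 differences became 0.11, 0.06 and 0.10.

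At day 28 the differences pointed the other way, and again none passed: 0 of 33 members and 0% of all genes. At an unadjusted p under 0.05, limma gave 3 members higher and 0 lower, against 2.21% and 5.38% of all genes. The median over the members was 0.18 log2 against -0.01 for all genes, with 30 of 33 above 0, where 51.9% of all genes lay below 0. With median centring the medians were 0.03 for the members and -0.10 for all genes. Without the 5 arrays with liver or lung epithelium transcripts 0 members had an unadjusted p under 0.05 (limma, median 0.12), and without the 3 nearly lacking atrial transcripts 1 had (median 0.15). Cardiomyocyte markers lay the same way, 8 of 9 above 0 with a median of 0.15, while 7 of 7 liver markers (median -1.93) and 7 of 7 adipocyte markers (median -1.87) lay below 0, and none of these passed. With the cardiomyocyte score as a covariate the members' median was 0.07, with 0 members at an unadjusted p under 0.05. Every one of the 9 beta-oxidation enzymes lay above 0, from 0.06 for Acads to 0.34 for Hadha.

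Hadha in the day 28 controls ran from 1.37 through a median of 1.82 to 2.16, and in the nano-TiO2 mice from 2.02 through 2.13 to 2.22. The ranges overlapped, and the treated mice were far closer to each other (SD 0.07) than the controls (SD 0.33). The difference was 0.34 ± 0.12 (SE), or 1.26-fold (limma, 95% interval 0.09 to 0.58, adjusted p = 0.636), and 0.30, 0.31 and 0.39 within the 3 scan days. Over the alternatives in processing, covariates and left-out mice it ranged from 0.16 to 0.41. The lowest Hadha controls, replicates 5 (1.37) and 4 (1.45), were among the 5 arrays with liver or lung epithelium transcripts. Echs1 differed by 0.19 ± 0.08 and Mlycd, which removes the malonyl-CoA that blocks carnitine palmitoyltransferase, by 0.31 ± 0.14. On the low side stood Cpt1a (-0.10 ± 0.12), Ppara (-0.09 ± 0.12) and Ucp3 (-0.09 ± 0.16), each smaller than its standard error. Ucp3, a mitochondrial carrier of muscle, was 0.33, 0.29, 0.31, 1.08 and 0.39 in control day 1, where only 1 of 5 arrays showed it well above background, so most values there lie near the floor. Its day 28 ranges overlapped in part, from 0.41 to 1.15 in controls and from 0.20 to 0.88 in nano-TiO2 mice. Without the 5 arrays that held liver or lung epithelium transcripts, 4 of them day 28 controls, Cpt1a and Ucp3 differed by 0.01 and 0.11.

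**Figure D2:**
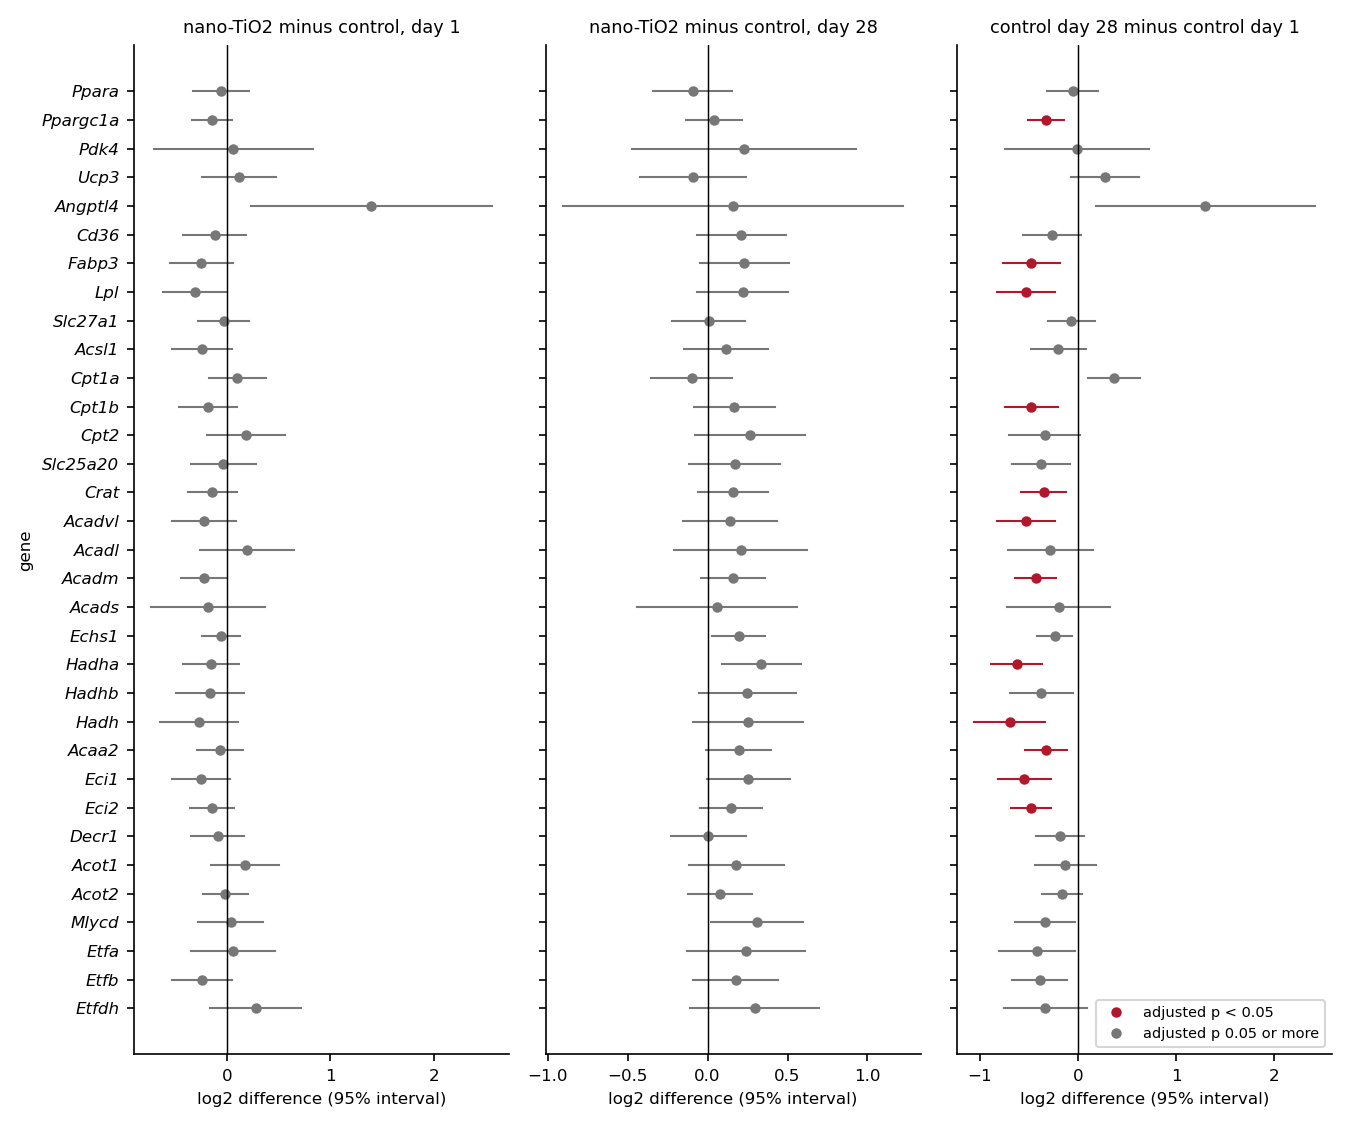
Difference of each of the 33 genes in log2 with its 95% interval, for nano-TiO2 minus control at day 1 (5 against 5 mice), at day 28 (6 against 6) and for control day 28 minus control day 1 (6 against 5); horizontal scales differ between panels. Red marks an adjusted p under 0.05, reached by 12 genes in the last panel and none in the others.

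Whether the effect of the particles differed between the time points was tested directly. Of the members 0 passed, as did 0% of all genes (limma). At an unadjusted p under 0.05, 9 had the higher effect at day 28 and 0 the lower, against 4.81% and 9.95% of all genes. The members' median of the day 28 effect minus the day 1 effect was 0.25 log2 against -0.02 for all genes, and 29 of 33 lay above 0, where 54.2% of all genes lay below. Cardiomyocyte markers had a median of 0.26 with 8 of 9 above 0, and adipocyte markers one of -4.37 with 7 of 7 below 0. The members' median was 0.07 with the adipocyte score as a covariate (1 member at an unadjusted p under 0.05) and 0.13 with the cardiomyocyte score (0 members). Without the 5 arrays with liver or lung epithelium transcripts it was 0.20 (0 members at an unadjusted p under 0.05). Without the 3 arrays nearly lacking atrial transcripts it was 0.26 (8 members), and 0 members and 95 genes passed. The smallest p belonged to Hadha (0.49 ± 0.18, adjusted p = 0.203), Eci1 (0.51 ± 0.19) and Acadm (0.39 ± 0.15). In the other direction stood Angptl4 (-1.24 ± 0.76), Ucp3 (-0.21 ± 0.24) and Cpt1a (-0.20 ± 0.18). With median centring Eci1 lay at -0.00 and Acadm at -0.11, the members' median at -0.18 and that of all genes at -0.27. Among the treated mice alone, day 28 against day 1, 0 members and 0% of all genes passed (limma). At an unadjusted p under 0.05 there were 0 members, against 1.65% of all genes higher and 2.84% lower. The members' median was -0.06, where 55.7% of all genes lay below 0.

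The differences that passed lay between the 2 sets of control mice. In day 28 controls 12 of 33 members were lower than in day 1 controls and 0 were higher, while of all genes 3.44% were lower and 7.03% higher (10.5% in either direction; 14.9% and 10.4% higher and lower at an unadjusted p under 0.05). The members' median was -0.34 log2 against -0.00 for all genes, and 30 of 33 lay below 0, as did 50.6% of all genes. These controls are the same animals that enter the nano-TiO2 comparisons above, so the 3 sets of differences are not independent.

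Within the spiral, 5 of 9 enzymes fell. Hadha carried the largest drop relative to its error: day 1 controls stood at 2.39, 2.49, 2.18, 2.64 and 2.36, and day 28 controls ran from 1.37 through 1.82 to 2.16, with no overlap. It fell by 0.62 on the log2 scale (SE 0.13), or 1.54-fold, with an adjusted p of 0.00494. Its partner Hadhb, transcribed from the other strand of the same upstream stretch, differed by -0.38 ± 0.15 (adjusted p = 0.123). Hadh, the hydroxyacyl-CoA dehydrogenase for shorter chains, was 3.14, 3.24, 2.68, 3.40 and 3.12 in day 1 controls and 1.83 through 2.40 to 2.97 in day 28 controls. The ranges overlapped, and the gene fell by 0.70 (SE 0.17). Acadm fell by 0.43 (SE 0.10), from the day 1 values given above to a range of 3.72 through 3.86 to 4.03 that did not overlap them. Acadvl, the very-long-chain dehydrogenase, fell by 0.53 (SE 0.14), and Acaa2, the mitochondrial thiolase, by 0.33 (SE 0.10). Acadl, Acads and Echs1 differed by -0.28 ± 0.21, -0.20 ± 0.25 and -0.24 ± 0.09 without passing.

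Of the auxiliary enzymes 2 of 3 fell. Eci2 was 1.83, 1.90, 1.90, 2.13 and 1.87 in day 1 controls and ran from 1.26 through 1.5 to 1.60 in day 28 controls. No mouse overlapped, and it fell by 0.48 (SE 0.10, adjusted p = 0.00553). Eci1 fell by 0.55 (SE 0.13), from 2.99, 2.95, 3.03, 3.45 and 3.21 to a range of 2.36 through 2.59 to 2.76, again without overlap. Decr1, the dienoyl-CoA reductase, differed by -0.18 ± 0.12.

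At the mitochondrial gate, Cpt1b was 4.90, 5.09, 4.95, 4.80 and 4.81 in day 1 controls and 4.18 through 4.45 to 4.62 in day 28 controls. The groups did not overlap, and Cpt1b fell by 0.48 (SE 0.13, adjusted p = 0.0212), with -0.39 on its second probe. Crat, which exchanges acetyl groups between CoA and carnitine, fell by 0.35 (SE 0.11, adjusted p = 0.0458). Slc25a20, the carnitine-acylcarnitine carrier, differed by -0.38 ± 0.14 and Cpt2, the inner-membrane enzyme, by -0.34 ± 0.17. Cpt1a lay the other way, at 0.36 ± 0.13 (adjusted p = 0.0729), but its second probe gave -0.00. Acsl1, the main acyl-CoA synthetase of heart, differed by -0.20 ± 0.13.

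Among the uptake genes, Lpl fell by 0.53 (SE 0.14), from 6.59, 6.63, 6.45, 6.95 and 6.65 to a range of 5.62 through 6.18 to 6.42 with no overlap, and its second probe differed by -0.38. Fabp3 fell by 0.48 (SE 0.14), and its ranges overlapped. Cd36 differed by -0.27 ± 0.14 and Slc27a1, a transport protein that also activates fatty acids, by -0.07 ± 0.12. Of the regulators, Ppargc1a fell by 0.33 (SE 0.09), from 3.89, 3.95, 3.88, 3.88 and 3.75 to 3.35 through 3.59 to 3.67, without overlap. Ppara differed by -0.05 ± 0.13 and Pdk4 by -0.01 ± 0.36. Angptl4 (1.30 ± 0.54) and Ucp3 (0.28 ± 0.17) were the other members above 0. The rest, Acot1, Acot2, Mlycd, Etfa, Etfb and Etfdh, lay between -0.42 and -0.13 and did not pass. Over all 33 members, 7 had every day 28 control below every day 1 control, where 2.35% of all genes tested did; this is the same contrast as the calls above.

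**Figure D3:**
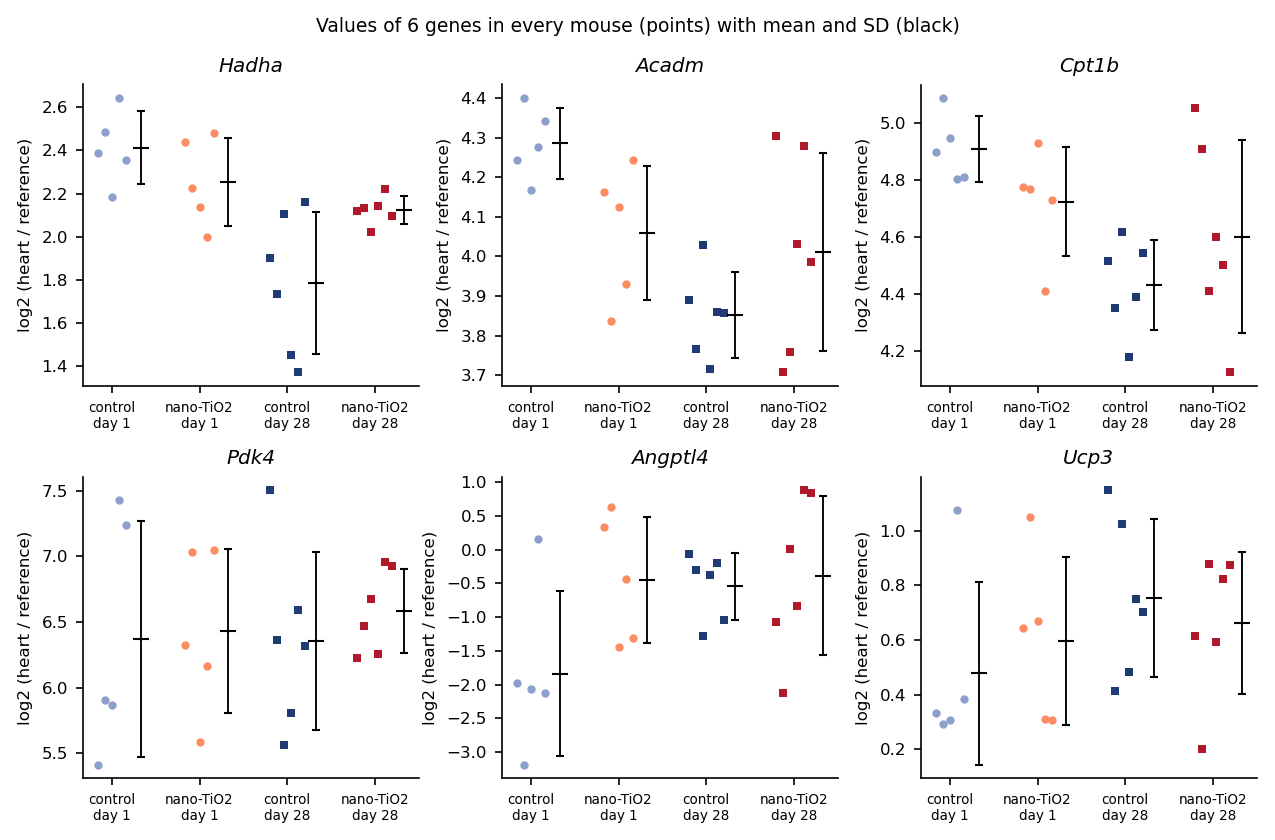
Log2 ratio of heart over reference RNA (vertical axes) for 6 genes in every mouse of the 4 groups, with the mean and SD in black. Day 28 controls lie below all day 1 controls for Hadha, Acadm and Cpt1b, while all 4 ranges overlap for Pdk4; vertical scales differ between panels.

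The heart pieces of these control groups also differed in their makeup. Of 9 cardiomyocyte markers, 5 were lower in day 28 controls and 0 higher (median -0.39), their score running from -0.00 to 0.33 in day 1 controls and from -0.35 to 0.03 in day 28 controls. Of 7 measured adipocyte markers 6 were higher (median 3.96) and of 7 atrial markers 3 (median 2.60). Also higher were 4 of 4 mesothelium markers (median 1.58), 4 of 5 of smooth muscle (1.92), 3 of 5 of macrophages (0.46), 1 of 5 of fibroblasts (0.58), 1 of 2 of brown fat (2.74) and 3 of 8 glucocorticoid-responsive genes (0.69). Bmp10, Dkk3 and Sln of the atrial list were detected on 15, 18 and 19 of 22 arrays and its other markers on 22. Ucp1 of brown fat was detected on 13. The control groups did not overlap in the fat cell score, nor in the atrial score (-3.04 to 0.03 against 0.69 to 1.29). With the adipocyte score as a covariate 0 members and 0 genes passed (3 members at an unadjusted p under 0.05), the members' median was -0.12, and Hadha differed by -0.38, Hadh by -0.59 and Eci2 by -0.20. With the cardiomyocyte score as a covariate, 0 members and 0 genes passed, none of the members had an unadjusted p under 0.05, and Hadha differed by -0.27. Makeup and time cannot be told apart in these groups. These fits do not separate them either, since the fat cell and cardiomyocyte scores themselves differ between the control groups.

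The control difference kept its direction within scan days, with a members' median of -0.37, -0.38 and -0.23 and 30, 27 and 26 of 33 below 0. Each scan day held 2 day 28 controls, set against 1, 2 and 2 day 1 controls. The adipocyte score was higher in the day 28 controls by 3.23, 4.29 and 2.84 on the same days. With slide as a fixed block 0 members and 0 genes passed (16 members at an unadjusted p under 0.05, median -0.29), and only 3 slides hold both control groups. Without the 3 arrays nearly lacking atrial transcripts 11 members passed, 10 of them among the 12 (median -0.31). Without the 5 arrays with liver or lung epithelium transcripts, which leaves 2 day 28 controls, 0 members passed (8 at an unadjusted p under 0.05, median -0.27). Leaving out control day 28 replicate 4 alone gave 6. With median centring 0 passed, with a median of -0.08 for the members and 0.14 for all genes.

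Related genes outside the list were followed in 8 pathway lists, of which 59 of 66 genes were measured well enough to test. At day 1 and at day 28 nano-TiO2 against control, 0 of 59 passed, as did 0% of all genes (limma). At an unadjusted p under 0.05, 3 were higher and 3 lower at day 1, against 6% and 2.64% of all genes. At day 28, 2 were higher and 2 lower, against 2.21% and 5.38%. The smallest p at day 1 belonged to Oxct1, which starts ketone body use (-0.34 ± 0.13), the uncoupling protein Ucp2 (0.42 ± 0.17) and fatty acid synthase Fasn (2.16 ± 0.86). At day 28 they belonged to the kinase Pdk3 (-0.30 ± 0.13), the lipoprotein receptor Vldlr (0.25 ± 0.11) and Oxct1 (0.27 ± 0.12). The day 28 effect minus the day 1 effect passed in 0 of 59 (13 at an unadjusted p under 0.05), with Oxct1 at 0.60 ± 0.18, Fasn at -3.69 ± 1.19 and Pdk3 at -0.54 ± 0.19. At an unadjusted p under 0.05, 5 of the 59 had the higher effect at day 28 and 8 the lower, against 4.81% and 9.95% of all genes.

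Between the control groups 6 of the 59 pathway genes fell and 5 rose by day 28, against 3.44% and 7.03% of all genes. Of 4 measured genes of ketone body use 2 fell, Oxct1 (-0.55 ± 0.13, adjusted p = 0.00895) and Acat1 (-0.32 ± 0.10). Also lower were Rxrg, the retinoid X receptor partner of PPARs in muscle (-0.43 ± 0.13), the mitochondrial acetate-activating enzyme Acss1 (-0.48 ± 0.13), the thioesterase Acot13 (-0.42 ± 0.11) and Hsd17b10 (-0.42 ± 0.12), a dehydrogenase of branched-chain breakdown. Higher were Pdk3 (0.59 ± 0.13), Ucp2 (0.59 ± 0.16), Acsf2 (0.30 ± 0.10), Fasn and the desaturase Scd1. Of the 11 peroxisomal genes 0 passed, as did 0 of 3 for carnitine supply. Fasn ran from -2.52 to -1.85 in day 1 controls and from -0.25 to 2.33 in the 5 day 28 controls with a value, a difference of 3.28 ± 0.86. Scd1 differed by 3.06 ± 0.85. With the adipocyte score as a covariate these values were -0.12 and -0.71, and the difference of Rxrg was 0.05.

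The next comparison asked which members followed fat cell RNA from mouse to mouse within groups. Of the 33, 6 fell and 1 rose with the adipocyte score, against 5.01% and 7.58% of all genes (12.6% in either direction; limma, group means with the score as a covariate). Slopes lay below 0 for 26 of 33 members and 52.1% of all genes. Crat changed by -0.108 ± 0.024 per unit of score (adjusted p = 0.00424), Cpt1b by -0.119 ± 0.029, Eci1 by -0.115 ± 0.030 and Slc25a20 by -0.118 ± 0.035. The regulator Ppargc1a (-0.077 ± 0.021) and Eci2 (-0.082 ± 0.023) completed those that fell. Slc27a1 rose by 0.094 ± 0.028 (adjusted p = 0.0305). The count rests on few arrays: it was 0 without the 3 arrays nearly lacking atrial transcripts (9 at an unadjusted p under 0.05). It was 3 without nano-TiO2 day 1 replicate 1, 2 without nano-TiO2 day 1 replicate 4, 1 without nano-TiO2 day 28 replicate 1 and 3 without nano-TiO2 day 28 replicate 6. Of 9 cardiomyocyte markers 3 fell with the score and 0 rose. Of the 59 pathway genes, 11 rose and 6 fell, and the risers included 6 of 7 genes of malonyl-CoA and fatty acid synthesis, such as Scd1 (1.10 ± 0.10 per unit) and Fasn (1.07 ± 0.09).

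**Figure D4:**
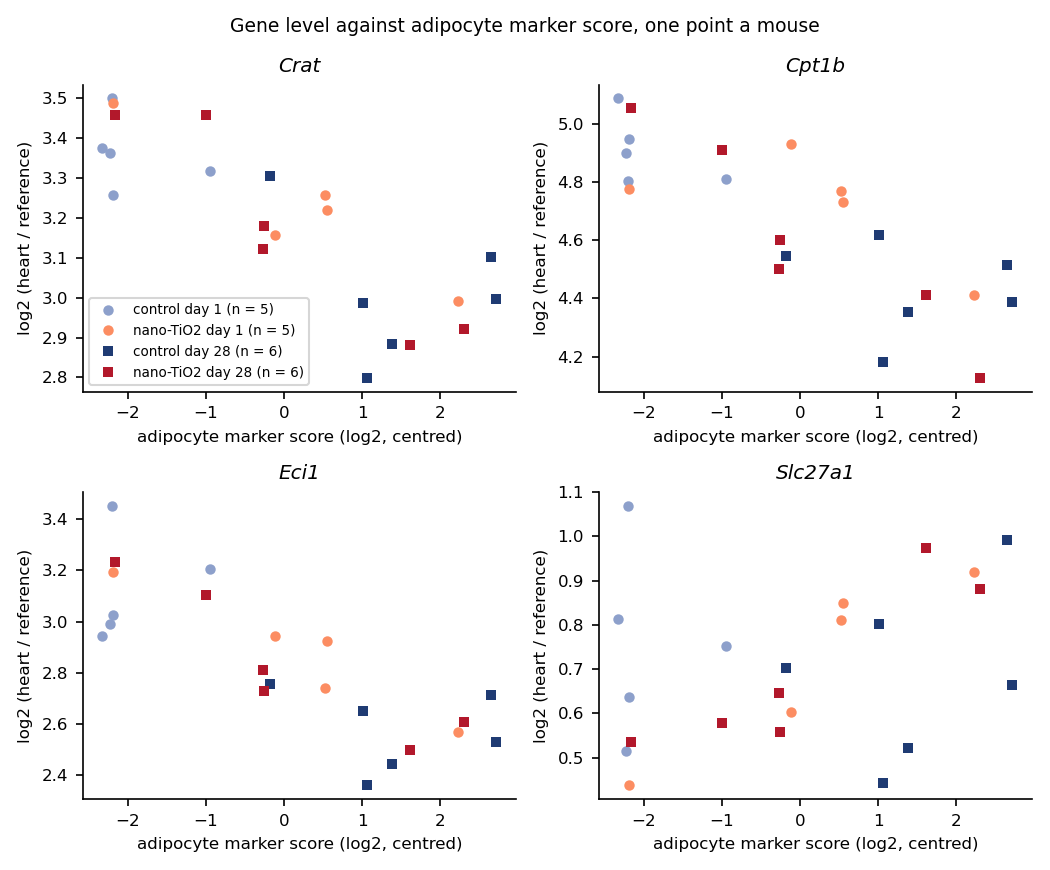
Log2 ratio of heart over reference RNA (vertical axes) against the adipocyte marker score (horizontal axes, log2, centred over the 22 arrays) for 4 genes, with a point for each mouse. Crat, Cpt1b and Eci1 sit lower at higher scores, with within-group slopes of -0.108, -0.119 and -0.115, and Slc27a1 has a slope of 0.094.

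Pairs of mice on the same slide give the nano-TiO2 differences of the members beside those of the fat score. At day 28, 6 slides held 1 mouse of each group. On 4 of them the nano-TiO2 mouse had the lower adipocyte score (by -2.99, -1.33, -4.82 and -2.38), and the members' median difference was 0.22, 0.32, 0.37 and 0.10. On the other 2 the score was higher by 2.49 and 0.60 and the median was -0.11 and -0.09. At day 1, 4 slides held such a pair, with score differences of 1.5, 0.04, 2.86 and 4.43 and member medians of 0.03, 0.10, -0.14 and -0.48. These are single pairs, with no test, and whether fat cell RNA accounts for the members' differences was not tested. In the fit over all mice, with the adipocyte score as a covariate, 0 members passed at either time (limma; 0 at an unadjusted p under 0.05 at both), and the members' median was 0.04 at day 1 and 0.09 at day 28.

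Atrial transcripts were followed in the same way. On the atrial score 0 of 33 members had a slope that passed, against 2.85% of all genes (2.38% with a positive and 0.471% with a negative slope; limma). At an unadjusted p under 0.05, 10 members had a negative slope and 0 a positive one, against 7.11% and 9.55% of all genes, and 50.6% of all slopes lay below 0. The smallest p was that of Crat, at -0.094 ± 0.026 and an adjusted p of 0.0533.

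The last comparison asked which of the other 32 members varied with Pdk4 from mouse to mouse. Of these 32, 1 passed (limma), against 4.79% of all genes in either direction (2.52% positive, 2.27% negative). At an unadjusted p under 0.05, 6 had a positive and 4 a negative slope, against 11.7% and 12.6% of all genes. Slopes lay below 0 for 11 of the 32 and for 50.3% of all genes. The member that passed was Ppara, which fell by 0.21 per log2 unit as Pdk4 rose (SE 0.06, adjusted p = 0.0498). Ppara is the receptor whose activity is known to induce Pdk4, and the slope concerns its transcript only. The remaining 31 did not pass. Among them Angptl4 (0.83 ± 0.28), Cpt1a (0.20 ± 0.07) and Slc27a1 (0.18 ± 0.06) had positive slopes, and Acadl (-0.32 ± 0.11) and Decr1 (-0.18 ± 0.06) negative ones, with adjusted p between 0.0716 and 0.0801. The Ppara call stood at the edge of the threshold. Leaving out each of the 22 mice in turn gave slopes of -0.25 to -0.17 and ended the call in 17 cases, and plain background subtraction gave a slope of 0.041.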

How the data were processed

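Heart RNA (Cy5) and reference RNA (Cy3) were measured on 22 arrays on 9 slides, scanned on 3 days. The deposited scanner files hold median intensities of each spot and its local background, neither subtracted nor normalized, and a log10 ratio made by Agilent Feature Extraction 10.7.3.1 per the file headers; the submitters' processing notes name version 9.5.3.1. The authors' deposited series matrix holds a log2 value per probe, made by a method not given in the sources used here. Both ratio sources serve as alternatives only.

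From the median intensities, background was corrected with normexp (offset 50, parameters fitted without spots marked as uneven), and arrays were normalized by loess in R 4.3.3 with limma 3.58.1 (data.table, version 1.17.8). Uneven or outlying spots (0.299%, by the software's own marks) were left out, and 0 spots were saturated. A probe was kept where its Cy5 signal was well above background on 5 or more arrays (19275 of 41174), 23374 were matched by RefSeq accession to 16535 genes (other probes kept the file's identifier), and the brightest kept probe stood for a gene. Of the 33 members, 32 were well above background in Cy5 on all 22 arrays, and Acadvl lacks a value in 1 mouse. limma fitted a mean per group, with p-values adjusted by Benjamini-Hochberg over all 15503 genes and unmatched identifiers (10477 with a symbol) at a threshold of 0.05. Slopes add a covariate to these means, and genes that make up a score were left out of its test. The test was also run on simulated data, drawn with the gene means and residual SDs of the fit to these arrays. Each array is a separate mouse. Members, pathway lists, markers and the naming rule (the 3 smallest p in each direction of each nano-TiO2 contrast, the 5 largest residual SDs, and whatever passed) were chosen with earlier results of these data known. In the pathway lists the same rule names the genes that passed, or the 3 with the smallest p. Alternatives covered background, normalization, source of values, filter, probe summary, eBayes, weights, batches, covariates and left-out mice. Figures were drawn with Python 3.11.15 and matplotlib 3.10.9.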

Additional observations from a re-analysis of the deposited data

Results flagged for a closer look

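Of 132 groups of member values examined, 7 held a highest or lowest mouse whose gap to its neighbour was large for the range of the group; chance alone gives about 1 such group in 20. Control day 1 replicate 4 was the highest of its group for Ucp3 (1.08, the next 0.39), Hadhb (5.05, the next 4.57) and Eci2 (2.13, the next 1.90). In the same group replicate 3 was the highest for Acads (1.48, the next 0.81). In nano-TiO2 day 1 replicate 4 was the lowest for Fabp3 (6.77, the next 7.14). At day 28 control replicate 4 was the lowest for Acot2 (0.52, the next 0.87), and nano-TiO2 replicate 2 for Acadl (3.13, the next 3.76). The array of control day 1 replicate 4 had the fewest probes well above background (32.7%), and control day 28 replicate 4 had the highest liver score (3.51).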

How the results depend on the processing

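The counts of 0 members for both nano-TiO2 comparisons, their difference and the treated time course stayed 0 under every alternative run. Leaving out each mouse in turn gave 30 to 31 members above the reference, 6 to 15 for control day 28 against day 1, 1 to 9 for the adipocyte slope, 0 to 3 for the atrial slope and 0 to 3 for the Pdk4 slope. The 12 members of the control comparison became 0 with normexp fitted on all spots, median centring, slide as a block, the adipocyte score with or without the atrial score, the cardiomyocyte score, or without the 5 arrays holding liver or lung epithelium transcripts. They became 7 with scaling between arrays, 24 with the log ratio of the scanner software, 20 with array weights, 5 with liver and lung scores and 6 with the share of detected probes as a covariate. The 7 of the adipocyte slope became 1 with normexp on all spots or Cy5 alone, 0 with median centring, with probes detected on all 22 arrays or without the 3 arrays nearly lacking atrial transcripts, 2 with scaling, 17 with the scanner ratio and 12 without the 2 mice farthest out. The 0 of the atrial slope became 13 with the scanner ratio, 9 with Cy5 alone and 2 with the series matrix or the mean over probes. The 1 of the Pdk4 slope became 23 with normexp on all spots, 8 with scaling, 3 with the series matrix, 2 with Cy5 alone and 0 in 10 others (plain subtraction, median centring, the scanner ratio, no filter, trend and robust eBayes, array weights, slide or scan day as a block, and both sets of left-out arrays) and without the 2 mice farthest out.

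Directions also turned. At day 28 Ppara was 0.067 with plain subtraction and 0.157 with the scanner ratio. Ucp3 there was 0.018 without background subtraction, 0.02 with the series matrix, 0.023 with array weights, 0.14 with the scanner ratio, 0.114 with liver and lung scores and 0.107 without the 5 arrays, and it ranged from -0.158 to 0.003 when each mouse was left out. Cpt1a at day 28 was 0.054 with liver and lung scores and 0.011 without the 5 arrays, where the later minus the earlier effect was 0.012 for Cpt1a and 0.103 for Ucp3. At day 1 Etfdh was -0.103 with the scanner ratio, Eci1 was 0.001 with the adipocyte score, and median centring gave Acadm 0.105, Lpl 0.055 and Eci1 0.095. It also gave -0.002 for Eci1 and -0.108 for Acadm in the later minus the earlier effect. Between controls Crat was 0.015, Rxrg 0.046, Fasn -0.127 and Scd1 -0.73 with the adipocyte and atrial scores, and 0.018, 0.049, -0.122 and -0.711 with the adipocyte score. With normexp on all spots the adipocyte slopes were 0.13 (Ppargc1a), 0.092 (Cpt1b) and 0.084 (Slc25a20) and the Pdk4 slope of Ppara 0.484; that slope was 0.041 with plain subtraction and 0.029 with the scanner ratio. The cause was not tested, except that leaving out arrays leaves fewer mice. The 5 alternatives that leave out the atrial-poor or liver- and lung-bearing arrays or use a single fat, cardiomyocyte or detection covariate were chosen after seeing the data. No paired analysis was possible because the labels share no replicate number between groups, so none pairs mice by number; mice that share a slide were compared through the fit with slide as a block and within slides. Ucp3 in control day 1 is limited by signal near background.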
